A study of Saccharomyces cerevisiae with 3 samples.

Results

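The 10 histone genes of Saccharomyces cerevisiae were taken from a table of 6207 open reading frames (ORFs) by their systematic names. They comprise 8 core genes, the linker gene HHO1 and the variant gene HTZ1. The data compare mRNA of yeast treated with caspofungin against mRNA of the untreated part of the same culture, on 2-colour DNA microarrays. Caspofungin is an echinocandin drug that blocks synthesis of the β-1,3-glucan of the cell wall. Both parts of a culture were the strain MID2extWSC1cyt, made in the BY4741 background, which by its name joins the outer part of the wall sensor Mid2 to the inner part of the sensor Wsc1, so the untreated control carries the chimera too. Both were grown in YEPD at 24 °C after dilution to an optical density of 0.2. The treated part had received 15 ng/ml caspofungin and both were harvested 2 h later. The labels do not say which promoter drives the chimera or whether the strain is 1 clone, and the parental strain was not analysed here.

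Arrays 1, 2 and 4, numbered as in their titles, were analysed. The caspofungin RNA carried Cy3 on array 1 and Cy5 on arrays 2 and 4. The study planned 4 arrays from 2 cultures with the dyes exchanged, so arrays 2 and 4 come from different cultures, and array 1 shares the culture of one of them. The labels do not say which. Every value is a log2 ratio as deposited. The labels do not settle the direction of the ratio, so values are called positive or negative. If the ratios are caspofungin over untreated on every array, a negative value means less mRNA with the drug. If they are instead Cy5 over Cy3, array 1 has to be turned, and results that depend on this are given both ways.

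Nucleosomes wrap DNA around an octamer of the core histones H2A, H2B, H3 and H4. Budding yeast carries each core histone as a pair of genes, arranged in divergent H2A-H2B and H3-H4 pairs that are transcribed away from a shared promoter region. Their transcription is confined largely to S phase, where Spt10 and the cell cycle factor SBF activate it. The HIR complex represses most of the pairs outside that window. The linker histone binds DNA between nucleosomes, and H2A.Z, made by HTZ1, replaces H2A near promoters through the SWR1 complex and is not tied to replication in the same way. The RefSeq gene order placed HTA1 beside HTB1 on chromosome IV, HTA2 beside HTB2 and HHT1 beside HHF1 on chromosome II, and HHT2 beside HHF2 on chromosome XIV, in each of the 4 cases as divergent neighbours.

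The arrays measured 3748, 2833 and 855 of the 6207 ORFs in the order 1, 2 and 4, which is 60.4%, 45.6% and 13.8%. Their medians were −0.24, −0.14 and −0.93 and the SDs over ORFs were 0.809, 0.436 and 1.55. Values on array 4 were therefore more widely spread and came from far fewer ORFs. The a-specific genes had values for 4 of 6 members, among them the pheromone receptor gene STE2 (0.10, 0.15 and −0.73), and the alpha-specific genes for 0 of 4, on a background whose mating type is a. Of the 4 genes that the BY4741 background lacks in working form, HIS3 had −1.20 and −0.07 and LEU2 −0.75 and 0.16 on arrays 1 and 2, while URA3 and MET17 had no value. Values are thus listed for genes that the background carries as deletion alleles. Whether the strain carries these as markers is not stated by the labels.

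Of the 10 histone genes, arrays 1 and 2 held values for 9 and array 4 for 8, beside the shares of all ORFs given above. The H4 gene HHF2 (YNL030W) was without a value throughout, and the H2B gene HTB2 (YBL002W) lacked one on array 4. The 8 genes on every array were HTA1, HTB1, HTA2, HHT1, HHF1, HHT2, HHO1 and HTZ1.

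HTA1 (YDR225W), a gene for H2A, had −0.14, −0.20 and −0.48 on arrays 1, 2 and 4 (mean −0.28 ± 0.18, SD, n = 3 arrays). Its divergent partner HTB1 (YDR224C), for H2B, had −0.13, −0.20 and −0.22 (mean −0.18 ± 0.05, SD, n = 3 arrays). Both were negative on each array as deposited and near the array median on arrays 1 and 2. On array 4 they lay above that array's low median, higher than 68.3% and 75.7% of its ORFs.

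HTA2 (YBL003C), the other H2A gene, had −0.60, −0.11 and −3.07 (mean −1.26 ± 1.58, SD, n = 3 arrays). It was the lowest histone gene on array 4, where 8.19% of the measured ORFs were lower, yet close to the median on array 2. HTB2, its divergent H2B partner, had −0.49 on array 1 and 0.11 on array 2, on opposite sides of 0. With array 1 turned, both HTB2 values were positive.

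HHT1 (YBR010W), for H3, had −0.77, 0.19 and −1.22 (mean −0.60 ± 0.72, SD, n = 3 arrays). HHF1 (YBR009C), its divergent H4 partner, had −0.75, −0.00347 and −2.25 (mean −1.002 ± 1.14, SD, n = 3 arrays). Both were above the median on array 2. On array 1 both were low as deposited and above the median with that array turned. On array 4, 18.5% of ORFs were lower than HHF1 and 41.6% were lower than HHT1. HHT2 (YNL031C), the other H3 gene, had −0.07, −0.21 and 0.29 (mean 0.00251 ± 0.25, SD, n = 3 arrays), and on array 4 it was higher than 84.7% of the ORFs and was the only positive histone gene of the 8 there.

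The linker histone gene HHO1 (YPL127C) had −0.79, −0.01 and −0.75 (mean −0.52 ± 0.44, SD, n = 3 arrays). It was low on array 1, where 21.0% of ORFs were lower, and above the median on arrays 2 and 4. The H2A.Z gene HTZ1 (YOL012C) had −0.91, −0.34 and −1.03 (mean −0.76 ± 0.37, SD, n = 3 arrays). It was negative on each array, with 16.8%, 23.5% and 46.8% of the measured ORFs lower. Its mean exceeded its SD in size, as did those of HTA1, HTB1 and HHO1. For HTA2, HHT1, HHF1 and HHT2 the spread between arrays was the larger. With array 1 turned, all histone values on that array were positive. The means were then −0.15 for HTZ1, −0.18 for HTA1, −0.10 for HTB1 and 0.01 for HHO1, each smaller in size than its spread between arrays.

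**Figure D1:**
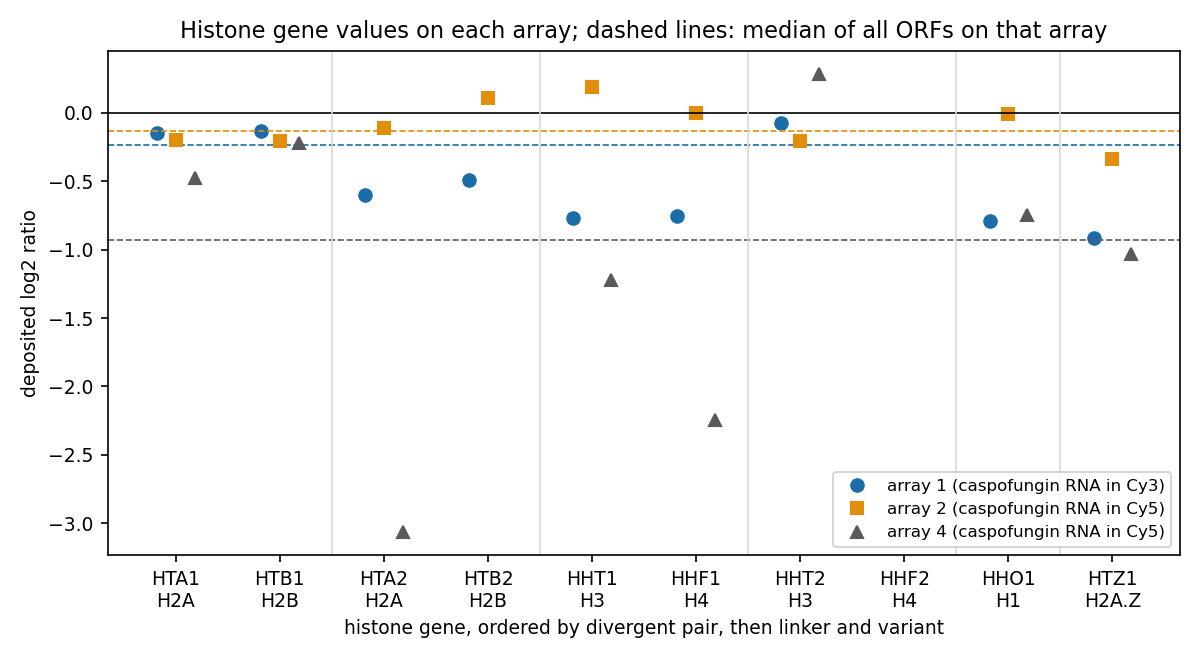
Deposited log2 ratio (vertical axis) of the 10 histone genes (horizontal axis, by divergent pair), with 1 point for each array and dashed lines at each array's median over all measured ORFs. On array 4 the points run from −3.07 for HTA2 to 0.29 for HHT2, while on array 2 all 9 lie between −0.34 and 0.19; HHF2 has no point.

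The limma fit had a caspofungin and a dye term and covered the 723 ORFs that all 3 arrays measured. It called 0 of the 8 histone genes, with a call set at an adjusted p (Benjamini-Hochberg) under 0.05. The background was 0.277% of the ORFs tested, that is 2 genes. At an unadjusted p under 0.05 there were again 0 of the 8, against 3.18% of all. The fit leaves 1 residual degree of freedom, and moderation gave every gene the same standard error of 0.73, and the smaller of the 2 called values was 2.93, for EFT2, a translation elongation factor gene. It also counts the 3 arrays as independent although 2 of them share a culture.

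All 8 fitted values were negative, as were 73.4% of the ORFs tested. They ran from −1.09 for HTA2 (SE 0.73, limma adjusted p = 0.868) through −0.94 for HHF1, −0.80 for HTZ1, −0.64 for HHT1, −0.59 for HHO1, −0.24 for HTA1 and −0.17 for HTB1 to −0.02 for HHT2 (SE 0.73, limma adjusted p = 0.996). Neighbours in this order differed by less than 1 SE. HTA2 was the only one of the 8 at least 2-fold and negative on every array, a class holding 10.4% of the ORFs tested. HTA1, HTB1, HTA2, HHF1, HHO1 and HTZ1 were negative on each of the 3 arrays, 6 of 8 against a background of 45.4%. This count was 0 of 8 with array 1 turned, against 10.8% of ORFs. The median fitted value of the 8 was −0.61, beside −0.36 for all 723 ORFs.

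Array 4 set the size of the largest values. On arrays 1 and 2 alone HTA2 had −0.36, HHF1 −0.38 and HHT1 −0.29, against −0.62 for HTZ1 and −0.40 for HHO1, so that HTZ1 took the lowest place and HHO1 the next. With array 1 turned, HTZ1 and HHO1 averaged 0.29 and 0.39 on these arrays, and HHT2 was lowest at −0.0664. On arrays 1 and 2 as deposited, the median of the 9 histone genes was −0.29 and that of the 2818 ORFs −0.18. Again 0 of the 9 were called, against 0.887% of these ORFs. Both arrays were negative for HTA1, HTB1, HTA2, HHF1, HHT2, HHO1 and HTZ1, 7 of 9, against 47.1% of ORFs. All 9 array 1 values were negative, so with array 1 turned the count was 0 of 9, against 19.5% of ORFs.

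With array 1 turned the other way, the fitted values were negative for 4 of the 8 genes against 69.3% of all ORFs. HHO1 then had 0.21, HHT1 0.12, HTZ1 0.11 and HHT2 0.06, and HTA2 was the lowest at −0.50. The dye term of the fit, which is this same quantity, called 0 of the 8 (limma adjusted p = 0.998 for each). Arrays 2 and 4 run in the same direction whichever reading is right, and their mean was negative for 7 of the 8 genes, from −1.59 for HTA2 to −0.21 for HTB1, and 0.04 for HHT2. This mean was negative for 79.1% of all ORFs. Both of these arrays were negative for HTA1, HTB1, HTA2, HHF1, HHO1 and HTZ1, 6 of 8, against 56.1% of ORFs.

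Histone genes are short, with RefSeq coding lengths of 312 to 777 bp, and short ORFs had lower values on all 3 arrays as deposited. The 1447 ORFs of at most 777 bp had medians of −0.67, −0.25 and −1.22 on arrays 1, 2 and 4. HHO1 alone sets that limit, and the other histone genes have at most 411 bp. The histone medians were −0.60, −0.11 and −0.89, above those of the short ORFs on each array, although below the median of all ORFs on array 1. With array 1 turned, short ORFs had higher values on array 1, and the histone median there lay below that of the short ORFs. With the trend of value on length removed within each array, 4 of the 8 fitted values were negative against 49% of ORFs, with HTB1 at 0.53, HTA1 at 0.45 and HHT2 at 0.67 and with HTA2 at −0.40. Centring each array on its median also left HTA1, HTB1 and HHT2 positive (0.12, 0.19 and 0.35), with 5 of 8 negative against 49.8% of ORFs.

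**Figure D2:**
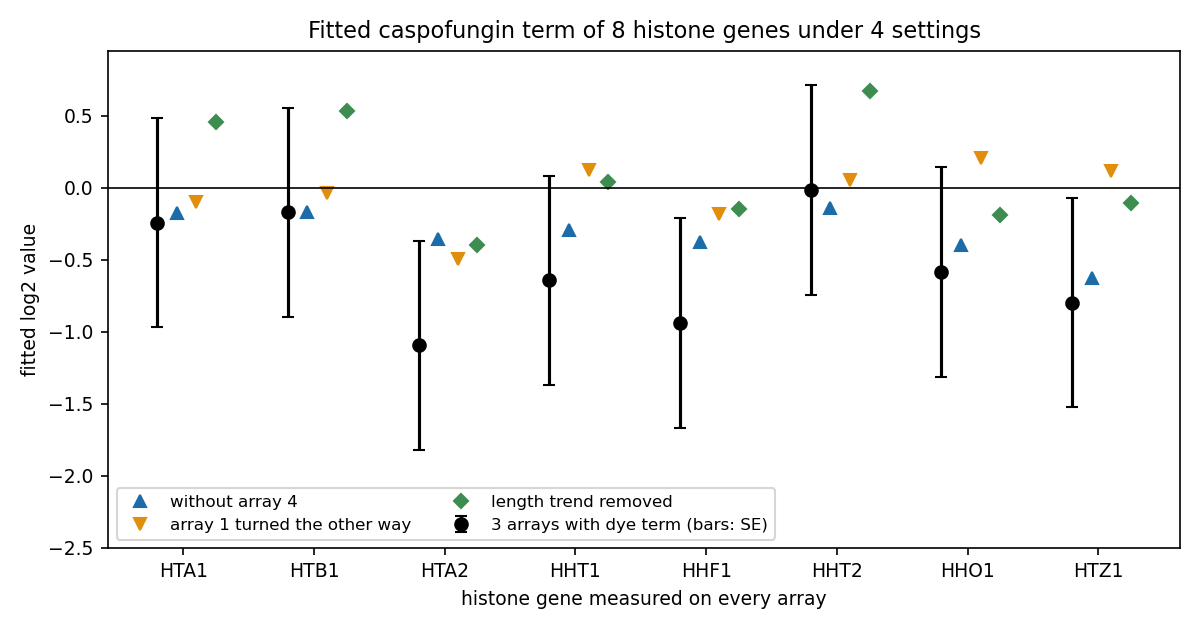
Fitted log2 value (vertical axis) of the 8 histone genes measured on every array, from the 3-array fit with its standard error and from 3 other settings. Every 3-array value lies below 0, from −1.09 for HTA2 to −0.02 for HHT2, and HHT1, HHT2, HHO1 and HTZ1 lie above 0 with array 1 turned.

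HTA1 and HTB1 had similar values on each array, while the genes of the other measured divergent pairs were closest on array 1. HTA1 minus HTB1 was −0.01, 0.00282 and −0.26 on arrays 1, 2 and 4 (mean −0.09 ± 0.15, SD, n = 3 arrays). HTA2 minus HTB2 was −0.11 and −0.22 on arrays 1 and 2. HHT1 minus HHF1 was −0.01, 0.19 and 1.03 (mean 0.40 ± 0.55, SD, n = 3 arrays), so this pair parted on array 4. Neither 3-array mean exceeded its SD, and with 3 arrays an exact two-sided sign-flip test cannot go below p = 0.25. The HHT2-HHF2 pair could not be compared.

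For scale, the median absolute difference over divergent neighbours of all kinds was 0.625 over 653 pairs on array 1, 0.263 over 421 pairs on array 2 and 0.903 over 45 pairs on array 4, and over any pair of ORFs it was 0.697, 0.316 and 1.31. The HTA1-HTB1 difference was smaller than that of nearly all divergent pairs, with 2.14%, 1.43% and 4.44% of them smaller still. HHT1-HHF1 stood at 1.99% on array 1, 34.9% on array 2 and 55.6% on array 4. HTA2-HTB2 stood at 11.3% and 41.3% on arrays 1 and 2. These are descriptions of 3 pairs on shared arrays.

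**Figure D3:**
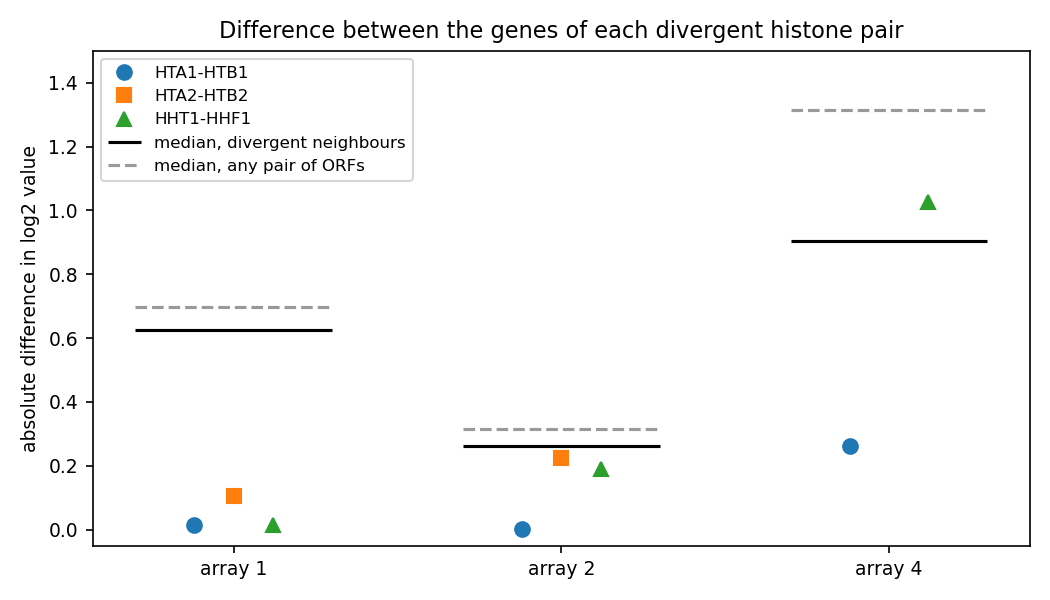
Absolute difference in log2 value (vertical axis) between the genes of each divergent histone pair on each array, with the median over all measured divergent neighbours (solid line) and over any pair of ORFs (dashed line). HTA1-HTB1 is lowest on arrays 2 and 4 and lies below the divergent median on each array, and HHT1-HHF1 lies above it on array 4 at 1.03.

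On array 1, genes for the same histone differed by more than divergent partners did. HTA2 minus HTA1 was −0.45, 0.09 and −2.59 on arrays 1, 2 and 4 (mean −0.98 ± 1.41, SD, n = 3 arrays). HHT1 minus HHT2 was −0.69, 0.39 and −1.51 (mean −0.60 ± 0.95, SD, n = 3 arrays), and HTB2 minus HTB1 was −0.36 and 0.31 on arrays 1 and 2. The sign turned between arrays 1 and 2 in each of these 3 comparisons as deposited, and with array 1 turned it was positive on both. HTA1 and HTA2, and HHT1 and HHT2, are close copies whose transcripts may bind each other's spots, and the labels do not say what the spots cover.

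Set against each array's median, the core genes divided by locus. HTA1, HTB1 and HHT2 were each above the median on array 1, below it on array 2 and above it on array 4. HTA2, HHT1 and HHF1, from both chromosome II pairs, were below, above and below, and HTB2 was below and above on arrays 1 and 2. These orders were held by 12.03% and 12.4% of the 723 ORFs. With the median taken over the ORFs measured on every array, HTA2 was just below on array 2 (−0.00327) and the other core genes kept their places. With array 1 turned, the first set was below, below and above and the second above, above and below. The sets were drawn after the values were seen and carry no test.

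The difference between the set medians, chromosome II genes minus HTA1, HTB1 and HHT2, was −0.55, 0.26 and −2.03 (mean −0.77 ± 1.16, SD, n = 3 arrays). The difference was therefore smaller than its spread between arrays, and its sign on array 2 opposed that on array 4, which has the same dye orientation. The mean was −0.41 ± 1.41 (SD, n = 3 arrays) with array 1 turned. Across the histone genes arrays 1 and 2 had a Pearson r of −0.33 (9 genes) and arrays 2 and 4 of −0.32 (8 genes), where over all ORFs these were 0.44 and 0.35. Arrays 1 and 4 had 0.57 (8 genes), with 0.39 over all ORFs. Turning array 1 reverses the sign of each of these values that involves it. The points share arrays and spots of similar sequence, and genes are not independent replicates.

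**Figure D4:**
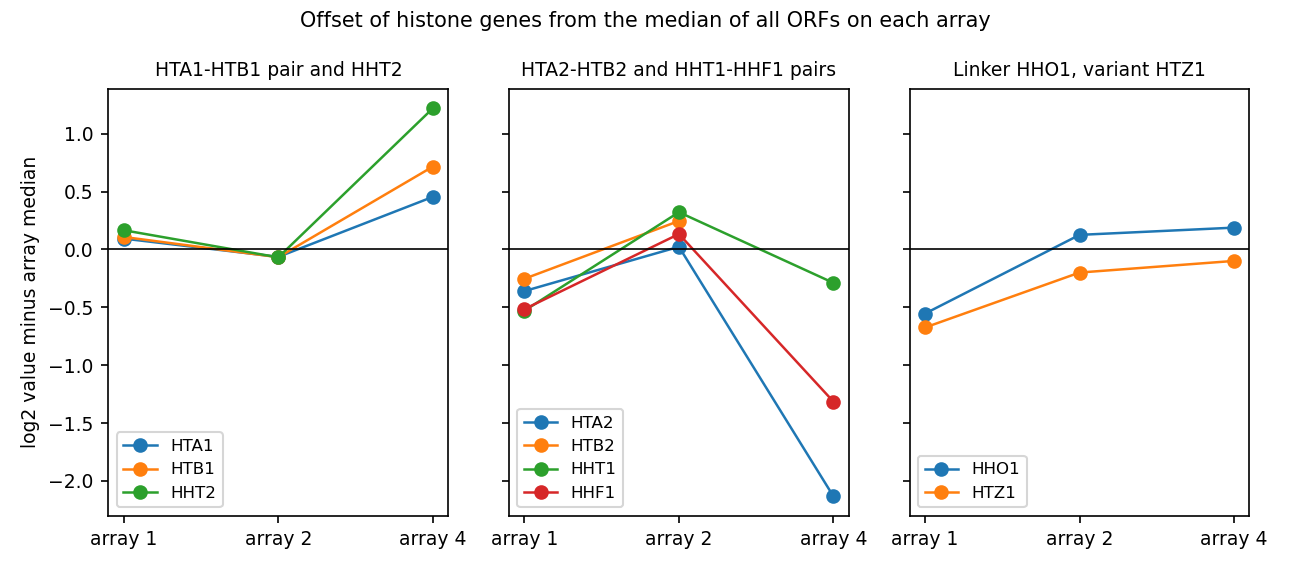
Log2 value minus the array median over all measured ORFs (vertical axis) on each of the 3 arrays, in 3 panels for HTA1, HTB1 and HHT2, for the chromosome II pairs, and for HHO1 and HTZ1. The first panel runs above, below and above 0 and the second below, above and below, with HTA2 at −2.13 on array 4, while HTZ1 is below 0 on each array.

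Genes flanking the pairs were near their histone neighbours in some cases and apart in others. Beside HTA1-HTB1, the adenylate kinase gene ADK1 had −0.13, −0.18 and 0.87 on arrays 1, 2 and 4, and CRF1, a repressor of ribosomal protein genes, had −0.06, −0.13 and −1.71. The drug efflux transporter gene FLR1, beside HHF1, had −0.68 and 0.18 on arrays 1 and 2, where HHF1 had −0.75 and −0.00347. On the other side, next to HHT1, the pyrophosphatase gene IPP1 had 0.15, −0.14 and 1.26. HHT1 had −0.77, 0.19 and −1.22. ECM15, beside HTB2, had a value on array 1 only, −1.51. Beside HHT2-HHF2, the mannosyltransferase gene KTR5 had −0.49 and −0.43 on arrays 1 and 2, and the phosphatase gene SIW14, next to HHT2, had −0.68 on array 1, where HHT2 had −0.07. Turning array 1 reverses the sign of each array 1 value named here, for histone and flanking genes alike. Neighbours on the chromosome and neighbours on the slide could not be told apart, because the labels give no spot positions.

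Core genes differed from the linker and variant genes by less than the spread between arrays. The median of the core genes minus that of HHO1 and HTZ1 was 0.36, 0.06 and 0.04 on arrays 1, 2 and 4 (mean 0.15 ± 0.18, SD, n = 3 arrays). In the fit the core median was −0.44 over 6 genes and the median of HHO1 and HTZ1 was −0.69, a difference of 0.25, which turned to −0.23 with array 1 turned. HTZ1 was lower than HTA1 on each array, with HTZ1 minus HTA1 at −0.77, −0.14 and −0.55 (mean −0.49 ± 0.32, SD, n = 3 arrays). With array 1 turned the first difference was 0.77 and the mean 0.03 ± 0.68 (SD, n = 3 arrays). Against HTA2 it was lower on arrays 1 and 2 (−0.31 and −0.22) and higher on array 4 (2.03). HTZ1 was the only histone gene of the 8 that lay below the array median over all measured ORFs on each array, against 21.0% of the 723 ORFs. With the median over the ORFs measured on every array, HTA2 did so as well, against 23.8% of ORFs. With array 1 turned, HTZ1 was 0.67 above the median there, and 0 of the 8 lay below the median on each array, against 8.99% of ORFs.

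Between the H2A-H2B and the H3-H4 genes the difference in medians was 0.44, −0.15 and 0.74 on arrays 1, 2 and 4 (mean 0.34 ± 0.46, SD, n = 3 arrays), again less than its spread, and 0.05 ± 0.62 with array 1 turned.

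The genes that regulate, carry and modify histones were measured sparsely. Of 84 listed genes of histone transcription, chaperones, H2A.Z deposition, modification, import and decay, the centromeric histone and S phase, 4 had a value on every array, 1 positive and 3 negative, and 0 were called (limma, background 0.277%). NAP1, a chaperone and importer of H2A-H2B dimers, had 1.55, 1.52 and −0.81 (fitted 0.96, SE 0.73, limma adjusted p = 0.868). As deposited, it was strongly positive on arrays 1 and 2, where the histone genes were mostly negative, and negative on array 4. With array 1 turned, NAP1 was negative and the histone genes were positive on that array. LSM1, of the cytoplasmic mRNA decay complex, had −0.41, −0.21 and −2.78 (fitted −0.95), SPT7, a SAGA subunit, had −0.47, −0.04 and −2.38 (fitted −0.84), and the nucleolar chaperone FPR3 had 0.26, −0.30 and −1.20 (fitted −0.24). SPT7 and LSM1 were negative on each array as deposited. With array 1 turned, they were positive on array 1 and the fitted values of all 4 genes were negative.

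The regulators of histone transcription had values for 7 of 12 genes and none on every array. HIR1, HIR2, HIR3, SPT10 and SPT21 had no value on any of the 3. RTT106 and ASF1, chaperones that act with the HIR complex, had 0.24 and 0.27 on array 1 and −0.32 and −0.21 on array 2. They changed sign between the arrays as deposited, and with array 1 turned they were negative on both. Of the SWR1 and H2A.Z deposition genes, 13 of 15 had a value somewhere and 0 on every array. SWR1, the ATPase of the complex, had −0.48 and −0.42 on arrays 1 and 2, and the subunit SWC5 had −0.21 and 0.39. Turning array 1 made SWC5 positive on both arrays and left SWR1 with opposite signs. The centromeric H3 variant gene CSE4 and its assembly factors SCM3 and PSH1 had no value.

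Genes induced with histone genes at the start of S phase did not share one direction. Of the 13 listed, 10 had a value somewhere and 0 on every array. RNR1, the large subunit of ribonucleotide reductase, had 1.14 and 0.97 on arrays 1 and 2, while POL30, the sliding clamp PCNA, had −0.86 and 0.04. Turning array 1 made POL30 positive on both arrays and left RNR1 with opposite signs.

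The ORFs closest to the histone profile over the 3 arrays, by root mean square difference from the per-array medians of the 8 genes (−0.68, −0.16 and −0.89), were ELO1 at 0.0466, ARF1 at 0.0491, SDH4 at 0.0580, RPS22A at 0.0614 and RIB3 at 0.0682. ELO1 elongates fatty acids, ARF1 is a GTPase of vesicle coats, SDH4 is a subunit of succinate dehydrogenase, RPS22A is a ribosomal protein and RIB3 acts in riboflavin synthesis. With the arrays centred and brought to equal spread, ELO1, ARF1 and SDH4 kept the first 3 places and CAF20 and GTT1 followed. Likeness over 3 arrays is a description only.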

How the data were processed

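Total RNA was labelled by reverse transcription with the CyScribe kit and hybridized to 2-colour arrays, per the labels' protocols. The authors deposited 1 log2 ratio per ORF and array. No label names the scanner, the background correction, the normalization or the reason for empty cells. The base of the log2 values was read from their rounding: as powers of 2, 100% fell on steps of 0.0001 (tolerance 0.01 of a step), and with the sign turned at most 2.54% did on any array, array 1 included. Scale is therefore settled, while centring and direction stay unknown.

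ORFs were matched to RefSeq R64 for names, order and coding length (5654 by locus tag, 57 by synonym, 496 unmatched). The 2 control rows were left out. The test was limma 3.58.1 in R 4.3.3 with Benjamini-Hochberg adjustment over 723 ORFs. Its code was run on simulated arrays that were independent and of equal spread. The unequal spreads and the shared culture of the real arrays were not simulated, so that check does not cover them. The main fit takes array 1 as already turned, because it correlates positively with arrays 2 and 4. That correlation cannot settle the direction, and whether a trend shared by the arrays, such as that with length, produces it was not tested. The number of arrays limits the precision. Array 1 shares a culture with another array, so part of the spread between arrays is technical.

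The members and lists were chosen with earlier results of these data known. All members are named, with up to 4 genes per list by size of the fitted value among those on every array, or, where a list had none, up to 2 with values on 2 arrays in list order, and the 5 closest ORFs. The flanking genes, EFT2, the marker genes with values and the list genes without a value were named after their values were seen. Alternatives covered the dye term, culture averaging, centring, spread, quantile normalization, direction, missing values, gene length, moderation and each array left out.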

Additional observations from a re-analysis of the deposited data

How the results depend on the processing

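No histone gene was called under any of the 15 alternative fits. The main 3-array fit also had none at an adjusted p under 0.10 or an unadjusted p under 0.05. The fit with every sign turned repeats its p values by construction. At an unadjusted limma p under 0.05, quantile normalization had 2 of 8 histone genes, against 228 of 723 ORFs. The count was 1 of 8 with arrays 1 and 2 averaged (79 of 723 ORFs) and with arrays 1 and 4 averaged (105 of 723). It was also 1 of 8 without array 2 (106 of 745) and on arrays 1 and 2 over the same ORFs (91 of 723). Each array sets the treated part of a culture against its untreated part, so every value is already a paired difference. With 1 group of arrays, no further pairing was used. Over all ORFs, the 2 calls became 0 when the dye term was dropped, when arrays 1 and 2 were averaged as 1 culture, when array 1 was turned, when ORFs on array 1 and at least 1 other were used, and under centring, equal spread, quantile normalization or removal of the length trend. They numbered 12 when arrays 1 and 4 were averaged, 11 for arrays 1 and 2 over the same ORFs, and 23 at an unadjusted p. Leaving out an array gave between 0 and 25. The 95 ORFs of 2-fold or more numbered 233 when arrays 1 and 2 were averaged, 61 under centring, 13 when array 1 was turned, 178 when ORFs on array 1 and at least 1 other were used, 45 without the length trend, and 28 for arrays 1 and 2 over the same ORFs. A limit of 1.5-fold gave 254 and one of 3-fold gave 12, while leaving out an array gave between 104 and 255. The number of negative histone genes was 5 of 8 after centring and with equal spread, 4 with array 1 turned, 4 with the length trend removed and 0 with every sign turned. It was 7 to 9 with an array left out, and 7 of 8 without the dye term. Their median was 0.00793 with array 1 turned, −0.0325 with the length trend removed, 0.61 with every sign turned and between −0.87 and −0.29 when an array was left out. The core median minus that of HHO1 and HTZ1 was −0.23 with array 1 turned, −0.25 with every sign turned, 0.45 with HTB2 included on array 1 and at least 1 other, and between 0.10 and 0.32 when an array was left out. HTA1 minus HTB1 was −0.14 to −0.01 and HHT1 minus HHF1 0.09 to 0.61 with an array left out, the smallest sizes without array 4.

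Among single genes, HTA2 and HHF1 were negative in each of the 14 fits that keep the overall sign. Centring turned HTA1 (0.12), HTB1 (0.19) and HHT2 (0.35), as did equal spread (0.0434, 0.0867 and 0.19) and removal of the length trend (0.45, 0.53 and 0.67, with HHT1 at 0.0425). Turning array 1 gave 0.12 for HHT1, 0.0561 for HHT2, 0.21 for HHO1 and 0.11 for HTZ1. HHT2 was also positive without the dye term (0.00251), with arrays 1 and 2 averaged (0.0732), and at −0.14 to 0.11 with an array left out, 0.04 without array 1 and 0.11 without array 2. With every sign turned the values were 0.24 for HTA1, 0.17 for HTB1, 1.09 for HTA2, 0.64 for HHT1, 0.94 for HHF1, 0.0162 for HHT2, 0.59 for HHO1 and 0.80 for HTZ1. These are the main values with the sign reversed, fixed by construction. Centring moved the median of all ORFs from −0.36 to 0.00375, so negative values above −0.36, those of HTA1, HTB1 and HHT2, turned positive. The causes of the other sign changes were not tested. The limma adjusted p of the 8 genes ranged from 0.145 (HTZ1) to 0.999 over the alternatives. Signal over background is not given for these arrays, and the direction, the culture of array 1 and what each spot covers limit every value above.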
